A study of Mus musculus with 9 samples.

Results

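A set of 10 genes of calcium-binding proteins was followed across the neurons of the mouse trigeminal ganglion, the sensory ganglion of the face. They were chosen by name, with earlier results of these data known. They are the calcium buffers Pvalb, Calb1 and Calb2, and the S100 genes S100b, S100a6, S100a10, S100a11 and S100a16. The neuronal calcium sensors Hpca and Vsnl1 complete the set. All 10 were found among the 21536 genes of the deposited table. The cells came from dissociated ganglia of wild-type FVB/N mice, given as 3 to 6 weeks old in the sample labels and of both sexes in the study's methods. Ganglia of many animals were pooled for each Dropseq run, and the labels name 9 samples. The preparation was enriched for neurons by a Percoll gradient and removal of glia. No mutant or treated animals were included, and the table does not say which of the 9 samples a cell came from. All cells were therefore 1 pooled sample, with no replicate check and no test between groups of cells.

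EF-hand proteins bind calcium through a loop between a pair of helices. Parvalbumin and the calbindins are mobile buffers that take up calcium as it enters the cell, whereas hippocalcin and visinin-like 1 are sensors that change shape and move to membranes when calcium rises. S100 proteins are small EF-hand proteins that work mostly as dimers and act on other proteins. S100A10 is the exception, because its loops no longer bind calcium and it works as a partner of annexin A2, which carries membrane channels to the surface. In somatosensory ganglia, parvalbumin and S100B are classical labels of large myelinated neurons, and S100B is also a label of glia.

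The table held 6997 cell barcodes with 30491529 unique transcripts (UMIs) in all, from 1000 to 190815 a barcode. A barcode counted as a neuron when it had 500 to 7500 genes, a UMI of at least 3 of the 6 genes Tubb3, Scn9a, Snap25, Nefl, Nefm and Uchl1, and none of Epcam, which left 3855. Of these, 2415 fell into 7 groups by the first rule they met. The groups were 244 Trpm8 neurons (2 or more UMIs), 379 Mrgprd neurons (2 or more), 49 Mrgpra3 neurons (1 or more), 57 Nppb neurons (2 or more), 320 Cd34 neurons (1 or more), 450 Nefh neurons (5 or more, Trpv1 at 0) and 916 Calca/Trpv1 neurons (5 or more of Calca and 1 or more of Trpv1). Their median depth ran from 3406 UMIs in the Nppb neurons to 5835.5 in the Cd34 neurons. The other 1440 neurons, with a median of 1826.5 UMIs, met no rule. Genes outside the rules marked the groups as well, with Foxp2 at 108 CPM in the Trpm8 neurons, Sst at 1162 CPM in the Nppb neurons and P2ry1 at 305 CPM in the Cd34 neurons. Levels are in CPM, the UMIs counted for a gene in every 1000000 of its group, with exact Poisson 95% intervals. Shares of neurons with a UMI carry Clopper-Pearson intervals. All intervals cover counting error only.

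Markers of other cells were found in many neurons. Gh, the gene of growth hormone, had a UMI in 41.8% of Nefh neurons, the lowest share, to 57.1% of Mrgpra3 neurons, the highest, and the myelin gene Mbp in 18.7% of Mrgprd neurons to 55% of Cd34 neurons. Only 677 of the 3855 neurons had fewer than 2 of the markers of other cells. The lists of such markers hold genes found in most neurons of a group, such as Pmp22 in 94.4% of Cd34 neurons. This count therefore does not give the number of neurons with RNA of other cells. The summed level of 10 glial genes ran from 267 CPM in the Trpm8 neurons to 2359 CPM in the Cd34 neurons, where Pmp22 alone gave 2021 CPM, and the glial genes Sox10, Prx and Fabp7 stayed at or below 3.52 CPM in every group. Neurons with no group had 9982 CPM of these genes, so they were not read as a neuron type. Over the 7 groups, summed levels ran from 217 to 901 CPM for 7 pituitary genes, 195 to 736 for 6 olfactory genes, 9.17 to 351 for 4 fibroblast genes, 7.04 to 81.4 for 5 endothelial genes, 18.6 to 35.2 for 7 red blood cell genes and 0 to 7.66 for 7 immune genes. Single genes gave most of some of these sums. Gnal gave 655 CPM of the olfactory sum in the Nppb neurons, and Dcn 347 CPM of the fibroblast sum in the Calca/Trpv1 neurons. In the Cd34 neurons Egfl7 gave 63.3 CPM of the endothelial sum and Gh 843 CPM of the pituitary sum. Gnal had a UMI in 55.1% of Nefh neurons, the lowest share, to 91.8% of Mrgprd neurons. Whether this RNA came from other cells was not tested, nor was its part in the results unless a value is given. Shares that free RNA can give were gauged in 424 barcodes with red blood cell markers (median 1421 UMIs). Since deeper cells show more genes, every share was also taken after thinning each barcode to 1000 UMIs, and thinned shares were compared with those in the red blood cell barcodes.

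The 10 genes lie on 6 chromosomes in the GRCm38 (mm10) assembly. S100a16 (chr3:90537254-90543151) and S100a6 (chr3:90612882-90624181) are 69730 bases apart on the plus strand. S100a11 (chr3:93520488-93526287) and S100a10 (chr3:93555080-93564643) are 28792 bases apart on the same strand, 2896306 bases further along. S100b is on chromosome 10 (76253853 to 76261159), and the others are Pvalb on chromosome 15, Calb1 and Hpca on chromosome 4, Calb2 on chromosome 8 and Vsnl1 on chromosome 12. Values below are sums over whole genes, since the table does not divide UMIs among exons or transcripts.

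**Figure D1:**
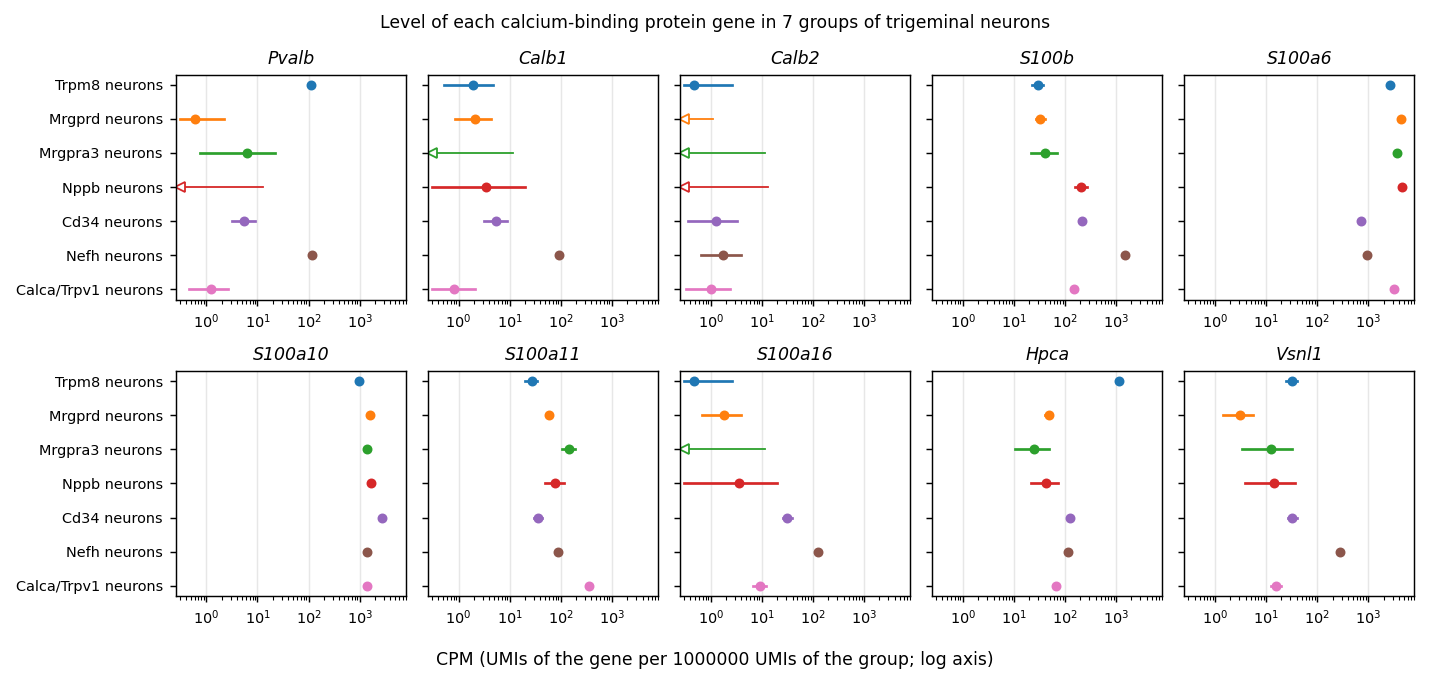
Each panel shows 1 gene, with its level in CPM on a log axis for each of the 7 neuron groups. Points are pooled levels, bars are exact Poisson 95% intervals and open arrowheads mark groups with 0 UMIs. Calb1, S100b, S100a16 and Vsnl1 were highest in the Nefh neurons, and Pvalb was alike in the Nefh and Trpm8 neurons within counting error. Hpca was highest in the Trpm8 neurons (1116 CPM), S100a10 in the Cd34 neurons (2751 CPM) and S100a11 in the Calca/Trpv1 neurons (355 CPM).

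Among the buffers, Calb1 (calbindin) was held by the Nefh neurons. Its level there was 94.5 CPM (84.5 to 105) from 321 UMIs, and 80 of the 450 neurons had a UMI (17.8%, 14.4 to 21.6). The Cd34 neurons came next with 5.49 CPM, followed by the Nppb neurons with 3.52, the Mrgprd neurons with 2.14, the Trpm8 neurons with 1.89 and the Calca/Trpv1 neurons with 0.821. No UMI was found in the 49 Mrgpra3 neurons, which makes the Nefh level at least 10.2-fold higher than the level of 3 UMIs in that group. The step from the Nefh to the Cd34 neurons was 4.10 on the log2 scale (3.40 to 4.90), and below it no step between neighbouring groups exceeded counting error. After thinning, 5.11% of Nefh neurons kept a Calb1 UMI, and no red blood cell barcode had one. Pituitary barcodes, which did not meet the neuron rule, had 26.0 CPM of Calb1 (19.7 to 33.6) with a UMI in 5.31%, or 2.42% after thinning, above every neuron group but the Nefh neurons. The 3 Nefh neurons richest in Calb1 held 37, 24 and 19 UMIs, and 73.5 CPM remained without them.

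Pvalb (parvalbumin) had similar pooled levels in 2 groups. The Nefh neurons had 118 CPM (107 to 131) with a UMI in 16.7% of neurons (13.3 to 20.4), and the Trpm8 neurons had 113 CPM (99.3 to 128) with a UMI in 12.3% (8.45 to 17.1). These levels differed by 0.06 on the log2 scale (-0.17 to 0.30), which is no more than counting error. The next groups were lower, with 6.19 CPM from 2 UMIs in the Mrgpra3 neurons (Trpm8 over Mrgpra3 4.19 on the log2 scale, 2.32 to 7.25), 5.49 in the Cd34 neurons, 1.23 in the Calca/Trpv1 neurons and 0.611 from 2 UMIs in the Mrgprd neurons, and no UMI in the Nppb neurons. The Trpm8 level was carried by few cells. In 3 neurons there were 56, 45 and 28 of the 240 UMIs, and without them the level fell to 55.5 CPM (45.6 to 66.8). The same step took the Nefh level to 82.3 CPM. Thinned shares were 8% of Nefh neurons and 3.28% of Trpm8 neurons, against 0.472% of red blood cell barcodes, and those of the Mrgprd, Cd34 and Calca/Trpv1 neurons (0%, 0.312% and 0.109%) were at or below that background.

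Calb2 (calretinin) was nearly missing from the grouped neurons. Only 16 UMIs in 14 neurons were counted in all 2415, or 0.922 CPM (0.527 to 1.5). The highest group value was 1.77 CPM from 6 UMIs in the Nefh neurons, and the Mrgprd, Mrgpra3 and Nppb neurons had 0 UMIs. A count of 0 allows up to 0.917 CPM in the Mrgprd neurons but up to 10.6 CPM in the Nppb neurons, since far fewer UMIs were read there. The levels of the groups could not be ordered at this depth.

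S100b was the most widely shared label of the Nefh neurons. It reached 1461 CPM (1421 to 1502) from 4962 UMIs, and 79.6% of the neurons had a UMI (75.5 to 83.2). Its per-neuron level in this group had quartiles of 280, 1205 and 2056 CPM, and the richest neuron gave 2.30% of the UMIs, so the level was spread over most of the group. The Cd34 and Nppb neurons followed with 216 and 204 CPM, which did not differ beyond counting error, and then the Calca/Trpv1 neurons with 151, the Mrgpra3 neurons with 40.2, the Mrgprd neurons with 33.0 and the Trpm8 neurons with 29.2 CPM. Thinning left 62.9% of the Nefh neurons with a UMI, 8.19% of the Calca/Trpv1, 6.56% of the Cd34 and 6.12% of the Mrgpra3 neurons. The thinned shares of the Trpm8, Mrgprd and Nppb neurons, at 2.87%, 3.69% and 1.75%, were close to or below the 2.59% of red blood cell barcodes.

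In the Nppb and Cd34 neurons, the S100b level rested on small numbers of cells. In the Nppb neurons, 45 of the 58 UMIs were in 1 neuron, which also had 52 UMIs of Nefh, and 18.4 CPM (5.0 to 47.0) remained without the richest 3. In the Cd34 neurons, 45 of 320 had a UMI of S100b. These 45 had a median of 11146 UMIs against 5530 in the 275 without, 2110 against 280 CPM of Nefh and 170 against 343 CPM of P2ry1. This split was made after the values were seen, and whether such a barcode holds RNA of more than 1 cell was not tested. In the Calca/Trpv1 neurons S100b was spread more widely, with a UMI in 219 of 916 and 21.3% of its UMIs in the richest 3. These 219 had a median of 5552 UMIs and 611 CPM of Nefh, against 3136 UMIs and 260 CPM in the 697 without, and the 29 with at least 5 UMIs of S100b had 16556 UMIs and 1330 CPM.

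S100a16 had the same leading group but was found in fewer of its neurons. The Nefh neurons had 128 CPM (116 to 140), with a UMI in 13.8% (10.7 to 17.3) as deposited and in 7.78% after thinning. The Cd34 neurons had 31.7 CPM and the Calca/Trpv1 neurons 9.24, and 27 of the 45 UMIs of the latter were in 1 neuron. The 4 remaining groups had 8 UMIs together, with none in the Mrgpra3 neurons, which puts the Nefh level at least 13.8-fold above 3 UMIs in that group. Thinned shares of the Trpm8, Mrgprd and Calca/Trpv1 neurons were at most 0.437%, below the 0.708% of red blood cell barcodes.

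S100a6 (calcyclin) ran the other way. It was most abundant in the Nppb neurons, at 4585 CPM (4339 to 4841), and in the Mrgprd neurons, at 4387 CPM (4316 to 4459), and these levels did not differ beyond counting error. The Mrgpra3 neurons had 3589 CPM, the Calca/Trpv1 neurons 3198 and the Trpm8 neurons 2694, each a step of 0.17 to 0.29 on the log2 scale below the one before. The Nefh neurons, with 952 CPM, lay 1.5 (1.44 to 1.56) below the Trpm8 neurons, and the Cd34 neurons had the lowest level, 738 CPM. Every Nppb neuron and 99.5% of Mrgprd neurons had a UMI, against 60.2% of Nefh and 61.2% of Cd34 neurons. Thinned shares kept this split, with 98.2% and 97.1% in the former groups, 41.6% and 37.2% in the latter and 8.02% in red blood cell barcodes. Within the Nefh and Cd34 neurons the gene was uneven, with per-neuron upper quartiles of 1512 and 1226 CPM over lower quartiles of 0.

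S100a10 was the most even of the 10. Its levels ran from 965 CPM (924 to 1008) in the Trpm8 neurons to 2751 CPM (2693 to 2810) in the Cd34 neurons, with the Nppb, Mrgprd, Mrgpra3, Nefh and Calca/Trpv1 neurons between 1382 and 1701 CPM. The Cd34 neurons exceeded the Nppb neurons, next in order, by 0.69 on the log2 scale (0.56 to 0.83). The Mrgpra3, Nefh and Calca/Trpv1 neurons, at 1420, 1391 and 1382 CPM, did not differ beyond counting error. A UMI was present in 83.7% of Mrgpra3 neurons and in at least 90.4% of each other group. After thinning it was present in 62.3% of Trpm8 neurons, the lowest share, to 89.4% of Cd34 neurons, the highest, against 7.08% of red blood cell barcodes.

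S100a11, the neighbour of S100a10 on chromosome 3, had its highest level in the Calca/Trpv1 neurons, with 355 CPM (339 to 373) and a UMI in 61.6% (58.3 to 64.7). The Mrgpra3 neurons had 145 CPM, a step of 1.29 on the log2 scale (0.87 to 1.74). The Nefh, Nppb and Mrgprd neurons followed with 88.6, 77.5 and 59.6 CPM, and neither of these steps exceeded counting error. The Cd34 and Trpm8 neurons were lowest with 36.2 and 26.9 CPM. Thinning left 28.2% of the Calca/Trpv1 neurons and 20.4% of the Mrgpra3 neurons with a UMI, and 1.64% to 6.60% in the other groups, against 0.472% of red blood cell barcodes. The richest Calca/Trpv1 neuron gave 1.5% of the group's UMIs.

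**Figure D2:**
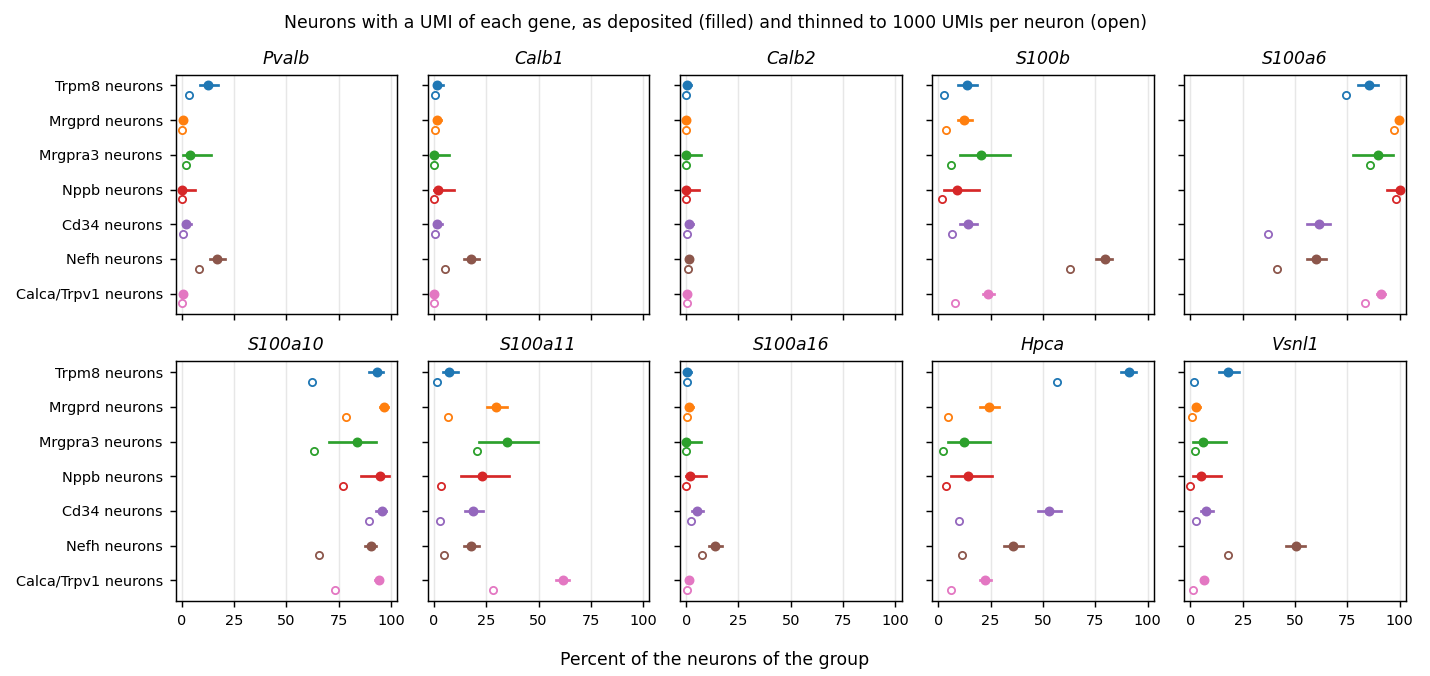
Each panel gives the percentage of neurons in each of the 7 groups with at least 1 UMI of the gene. Filled points with exact binomial 95% intervals are the data as deposited, and open points are the same neurons thinned to 1000 UMIs. S100a6 and S100a10 stayed common after thinning, and S100b in Nefh neurons went from 79.6% to 62.9%, while Calb2 was near 0 in all groups.

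Of the sensors, Hpca (hippocalcin) separated the Trpm8 neurons from all other groups. Its level there was 1116 CPM (1072 to 1162) from 2368 UMIs, and 91.4% of the neurons had a UMI (87.1 to 94.6), or 56.6% after thinning. The Cd34 neurons had 124 CPM and the Nefh neurons 113, which did not differ beyond counting error and were lower than the Trpm8 level by about 3.17 on the log2 scale (3.01 to 3.33, Trpm8 over Cd34). The Calca/Trpv1 neurons had 67.6 CPM, the Mrgprd neurons 47.7, the Nppb neurons 42.3 and the Mrgpra3 neurons 24.8. A UMI was seen in 53.1% of Cd34 neurons as deposited but in 10% after thinning, and in 0.472% of thinned red blood cell barcodes. Within the Nefh group, 34 neurons had the 1 Trpm8 UMI that the rules allow. These had 447 CPM of Hpca and 693 CPM of S100b, against 92.3 and 1509 CPM in the 416 with no Trpm8 UMI, a split made after the values were seen.

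Vsnl1 (visinin-like 1), a sensor of the same family, was highest in the Nefh neurons with 276 CPM (258 to 294). A UMI was found in 50.2% of them (45.5 to 54.9), and in 18.0% after thinning. The Cd34 and Trpm8 neurons had 32.6 and 31.6 CPM, which is 3.08 (2.78 to 3.39) below the Nefh level on the log2 scale for the Cd34 neurons. The Calca/Trpv1, Nppb and Mrgpra3 neurons had 15.6, 14.1 and 12.4 CPM, and the Mrgprd neurons had 3.06 CPM from 10 UMIs in 10 neurons. The 3 richest Nefh neurons gave 10% of the group's UMIs. Thinned shares of the other groups were 0% to 2.5%, against 0.472% of red blood cell barcodes, and those of the Nppb (0%) and Mrgprd neurons (0.528%) were at or close to that background. In the Cd34 neurons, second in order for Vsnl1, S100a16 and Calb1, these genes were mostly in the neurons with S100b, which held 18 of the 24 with Vsnl1, 10 of the 16 with S100a16 and 4 of the 5 with Calb1. The richest 3 Cd34 neurons gave 43.6%, 59.2% and 88.2% of these UMIs.

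The Nefh and Calca/Trpv1 groups, which stand for myelinated neurons and peptidergic nociceptors, were then compared gene by gene. Of the 9 members with at least 20 UMIs over both groups, 5 were over 2-fold higher in the Nefh neurons, whereas 9.93% of the 11972 genes tested this way were. These were Calb1 (log2 ratio 6.85, 5.48 to 8.73), Pvalb (6.59, 5.45 to 8.04), Vsnl1 (4.14, 3.81 to 4.5), S100a16 (3.79, 3.34 to 4.27) and S100b (3.27, 3.16 to 3.39). Over 2-fold lower were 2 members, S100a11 (-2.0, -2.19 to -1.83) and S100a6 (-1.75, -1.80 to -1.69), beside 10.8% of all genes. Hpca was higher by 0.74 (0.53 to 0.96), and S100a10 differed by 0.01 (-0.04 to 0.06). The median over the 9 members was 3.27, and over all genes it was -0.07. The members were chosen with earlier results of these data known. S100b, S100a16, Hpca and Vsnl1 are among the cluster markers drawn in the paper's heatmap of these cells. Counts of members beside shares of all genes, here and below, are therefore descriptions and no test of enrichment. Calb2 had 11 UMIs in all and its ratio of 0.78 had an interval from -1.19 to 2.83. The ratios of the buffers rested on small counts in the Calca/Trpv1 neurons, with 4 UMIs of Calb1 and 6 of Pvalb, whereas Vsnl1 had 76.

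**Figure D3:**
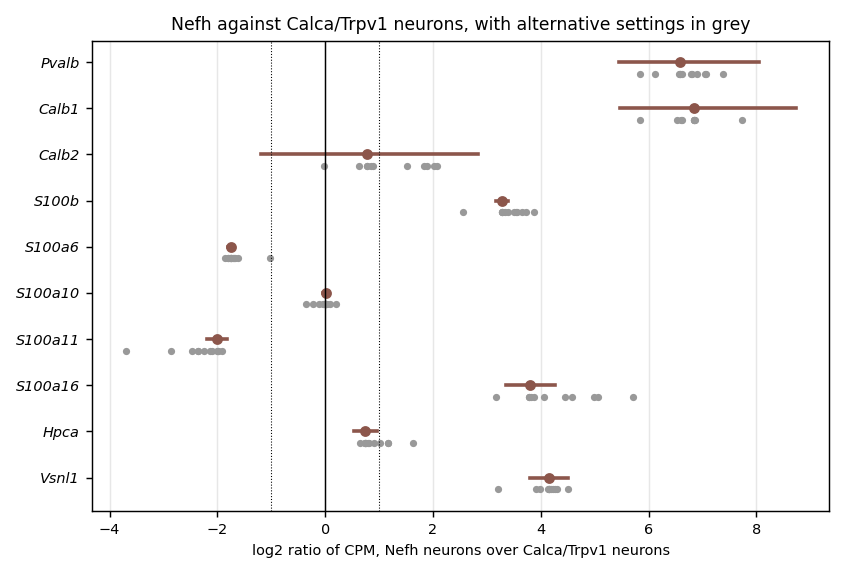
The log2 ratio of pooled CPM in the Nefh neurons over the Calca/Trpv1 neurons is shown for each gene in brown with its exact binomial 95% interval, and grey points give the same ratio under the alternative settings. Dotted lines mark 2-fold. Pvalb, Calb1, S100b, S100a16 and Vsnl1 lay above the upper line at every setting that gave a value, and S100a6 (-1.75) and S100a11 (-2.0) lay below the lower line.

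Each group was also set against the 6 others together. In the Nefh neurons the same 5 members were over 2-fold higher, beside 7.75% of 13150 genes, and S100a6 (-1.60) and Hpca (-1.04) were over 2-fold lower, beside 10%. The Hpca value was set by the Trpm8 neurons, since the Nefh level of 113 CPM was above that of the Calca/Trpv1, Mrgprd, Nppb and Mrgpra3 neurons, and it turned to 1.21 with the order of the rules reversed. S100a6 was -0.87 in that setting. Under the alternative settings the Nefh ratio of Pvalb, 2.63, ran from 2.60 to 5.89 and that of Calb1, 5.32, from 2.87 to 7.40. In the Trpm8 neurons 2 members were higher, Hpca by 3.74 (3.64 to 3.84) and Pvalb by 2.01 (1.77 to 2.24), beside 4.90% of genes, and 5 were lower, beside 17.7%. The Pvalb value depended on the settings. With the order of the rules reversed, Trpm8 neurons rich in Nefh moved to the Nefh group and the ratio became -2.32, and it was -1.36 without neurons with 2 or more markers of other cells, 0.83 after thinning and 0.65 without the 10% deepest neurons. S100a6 was the only member over 2-fold higher in the Mrgprd neurons (1.08, 1.05 to 1.11), beside 6.32% of genes, and 7 members were lower, beside 19.7%. S100a10 was the only one in the Cd34 neurons (1.0, 0.97 to 1.04), beside 5.44%, with 5 lower beside 14%, and its ratio lay at the 2-fold line. S100a11 was the only one in the Calca/Trpv1 neurons (2.60, 2.47 to 2.72), beside 8.18%, with 6 lower beside 10.4%. No member was over 2-fold higher in the Mrgpra3 neurons (8.03% of genes) or the Nppb neurons (8.40%), where 6 and 5 members were lower, each beside 24.5%. S100a6 was higher by 0.53 and 0.89 in these groups.

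The Nefh neurons were divided by genes outside the list, first by at least 2 UMIs of Ntrk2, the receptor of BDNF, which took 91 neurons, then by at least 5 UMIs of Calca, which took 82 and left 277. S100b had 1472 CPM in the Ntrk2 neurons, 1323 in the Calca neurons and 1532 in the rest, and the Calca level was lower than that of the rest by more than counting error (log2 ratio -0.21, -0.32 to -0.11). Its share of neurons with a UMI differed more, at 97.8%, 89.0% and 70.8%, or 75.8%, 63.4% and 58.5% after thinning. S100a11 was 287 CPM (252 to 325) in the Calca neurons but 22.3 and 20.6 in the others, a log2 ratio of 3.80 (3.26 to 4.39) to the rest. S100a16 followed, with 353 CPM in the Calca neurons, 73.8 in the rest and 18.4 in the Ntrk2 neurons, and S100a6 had 1732, 850 and 448 CPM in the same order. Some of these levels rested on few cells: 3 cells gave 49.7% of the S100a16 UMIs in the Calca neurons and 59.3% of the S100a6 UMIs in the Ntrk2 neurons, and 1 cell gave 14 of the 19 S100a16 UMIs in the latter. After thinning, S100a11 was found in 20.7% of the Calca neurons, 3.30% of the Ntrk2 neurons and 0.722% of the rest, and S100a16 in 17.1%, 1.10% and 7.22%.

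The pooled levels of Pvalb, Calb1 and Vsnl1 were low where these S100 genes were high. Calb2 had 2 UMIs in the Calca neurons, 0 in the Ntrk2 neurons and 4 in the rest, too few to order them. Pvalb had 16.2 CPM in the Calca neurons, 141 in the Ntrk2 neurons and 162 in the rest. The shares with a UMI were closer, at 13.4% (6.89 to 22.7), 17.6% (10.4 to 27.0) and 17.3% (13.1 to 22.3), with intervals that overlapped. In the Ntrk2 neurons 3 cells gave 77.9% of the Pvalb UMIs. Calb1 had 23.2, 153 and 95 CPM in the same order, and 34.1% of the Ntrk2 neurons had a UMI against 2.44% of the Calca neurons, where 19 of its 20 UMIs were in 1 neuron. Vsnl1 had 132, 360 and 300 CPM, and 3 cells gave 55.3% of its UMIs in the Calca neurons. Hpca had 97.5 CPM in the Calca neurons, 60.2 in the Ntrk2 neurons and 158 in the rest. In the Calca neurons 39 of its 84 UMIs were in 1 neuron, so these and the Ntrk2 neurons were not ranked, and a UMI was found in 29.3%, 38.5% and 36.8% of the subgroups in that order. The subgroups differed in depth, with medians of 7083, 5922 and 3436 UMIs for the Ntrk2 neurons, the Calca neurons and the rest. Thinned to 1000 UMIs, 11%, 0% and 4.69% of them had Calb1, 4.4%, 2.44% and 10.8% had Pvalb, and 25.3%, 2.44% and 20.2% had Vsnl1.

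**Figure D4:**
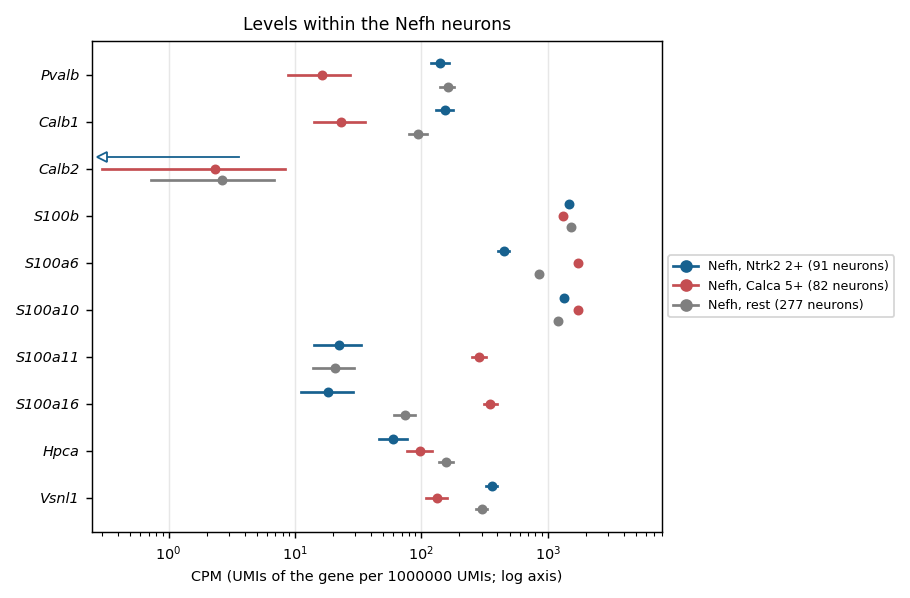
Pooled levels (CPM, log axis) of the 10 genes are shown in Nefh neurons with at least 2 UMIs of Ntrk2 (blue), with at least 5 UMIs of Calca (red) and in the rest (grey), with exact Poisson 95% intervals. S100b had 1323 to 1532 CPM across the subgroups, S100a11 (287 CPM) and S100a16 (353 CPM) stood out in the Calca neurons, and Pvalb (16.2 CPM), Calb1 (23.2 CPM) and Vsnl1 (132 CPM) were lowest there.

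The Trpm8 neurons were divided by Nefh, with 172 neurons at 5 or more UMIs and 72 below. All 240 Pvalb UMIs were in the former, at 131 CPM (115 to 148) and 17.4% of neurons. The 72 others had 0 UMIs of Pvalb, which by 3 counts allows up to 4.17% of such neurons to show a UMI at their depth and does not limit the share that express the gene. After thinning, 4.65% and 0% had a UMI. The level in the former was at least 12.4-fold that of 3 UMIs in the latter, and the exact interval of the log2 ratio began at 3.32. The split is by a count, so it also separated neurons with a median of 7638.5 UMIs from neurons with a median of 2729.5. The 30 Trpm8 neurons with a Pvalb UMI had 457 CPM of Trpm8, 91.4 CPM of Foxp2, 650 CPM of Tac1 and 0 UMIs of Piezo2, and the 214 without had 591, 113, 2521 and 22.1 CPM. The 30 also had more of genes high in the Nefh group, with 2877 against 1707 CPM of Nefh and 65.0 against 18.4 CPM of S100b, and were deeper, with medians of 10271.5 and 5196 UMIs. Hpca was present in both subgroups, at 1171 and 761 CPM (log2 ratio 0.62, 0.42 to 0.83), and S100a6 at 2725 and 2493 CPM.

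The Calca/Trpv1 neurons were divided by Trpa1, a channel for irritants, into 437 with a UMI and 479 without. S100a6 was higher with Trpa1, at 3906 against 2311 CPM (log2 ratio 0.76, 0.71 to 0.81), and S100b was lower, at 114 against 198 CPM (-0.80, -1.02 to -0.59). The share of neurons with an S100b UMI was alike, at 23.8% and 24.0%, and 3 cells gave 34.7% and 30.6% of the UMIs. The split is by a count, and the median depths were 4319 and 3091 UMIs. S100a11 differed little, at 376 and 329 CPM (0.19, 0.05 to 0.33), and S100a10 was 1338 and 1436 CPM.

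Pairs of members were counted within single neurons after thinning and set beside the number expected if both were scattered independently in the group, as a description with no test. Among the 450 Nefh neurons, 20 of the 22 with S100a11 also had S100a6, where 9.14 were expected. S100a6 and S100a16 met in 22 neurons, with 14.5 expected. S100b and Hpca met in 16 neurons with 31.4 expected, Calb1 and S100a6 met in 2 with 9.56 expected, and S100b met Pvalb in 21 with 22.6 expected, or in 62 with 59.7 expected as deposited. Other counts as deposited also went another way. S100a11 and S100a16 met in 1 neuron with 1.71 expected after thinning but in 31 with 11 expected as deposited. Vsnl1 and Hpca met in 3 neurons with 9 expected after thinning but in 89 with 80.9 expected as deposited, and S100b and Calb1 in 14 with 14.5 expected after thinning but in 75 with 63.6 expected as deposited. In the Trpm8 neurons, Hpca and S100a6 met in 107 neurons with 102 expected.

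Several members were also found in barcodes that did not meet the neuron rule. Of 2609 such barcodes with 200 to 8500 genes, 352 had markers of glia, 102 of endothelium, 828 of pituitary, 153 of the olfactory epithelium, 95 of immune cells, 16 of fibroblasts and 424 of red blood cells, and 639 had several kinds or none. S100b had 1243 CPM (1182 to 1306) in the glial barcodes, with a UMI in 68.5% at a median of 1652 UMIs, and 1787 CPM in the 178 of them with Mog, a gene of central myelin, but no Prx or Fabp7. In the 64 with Prx, a gene of Schwann cells, and no Mog or Fabp7 it had 779 CPM. When neurons with a UMI of any of 11 strict markers of other cells were left out, the Nefh to Calca/Trpv1 ratio of S100b was 3.51, a setting chosen after the data were seen.

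S100a16 was higher in glial barcodes, at 368 CPM (335 to 403) and 54.0% of barcodes, than in any of the 7 neuron groups. The same was true of endothelial barcodes, at 334 CPM and 43.1%. The Calca neurons within the Nefh group had a similar level, 353 CPM (314 to 395). The 16 fibroblast barcodes had 197 CPM (79.2 to 406) from 7 UMIs. Among the glial barcodes, S100a6 had 1911 CPM and S100a16 142 CPM in those with Prx, 184 and 595 CPM in those with Mog, and 682 and 529 CPM in the 24 with Fabp7 and neither Mog nor Prx. Calb2 was highest in the olfactory barcodes, with 286 CPM (239 to 339) and a UMI in 30.7% (23.5 to 38.7), and these also had 194 CPM of Vsnl1, of which 47.2% was in 1 barcode. S100a11 had 138 CPM in the pituitary barcodes and 239 CPM in the endothelial ones, against 10.2 CPM in glial barcodes. Hpca had no UMI in the endothelial or immune barcodes, which had 102 and 95 members, and 71.6% of its UMIs in glial barcodes were in 1 barcode.

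**Figure D5:**
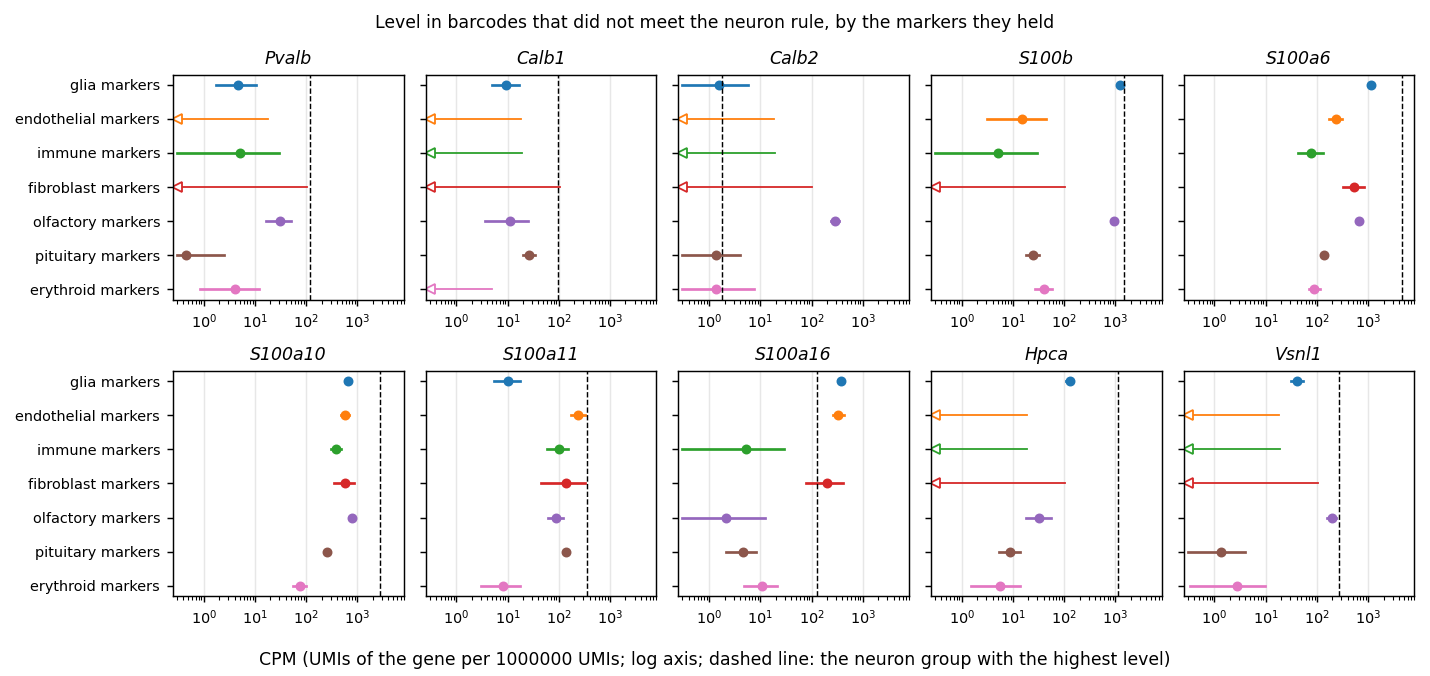
Levels (CPM, log axis) of the 10 genes are shown in barcodes that did not meet the neuron rule, grouped by the markers they held, with exact Poisson 95% intervals, and open arrowheads mark 0 UMIs. The dashed line is the level of the highest neuron group. Calb2 in olfactory barcodes (286 CPM) and S100a16 in glial (368 CPM) and endothelial (334 CPM) barcodes lay above that line, and S100b in glial barcodes (1243 CPM) lay just below it.

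A wider list of 78 genes of calcium binding and clearance was set beside the members, of which 77 were used. Between the Nefh and Calca/Trpv1 neurons, 57 had 20 UMIs. Of these, 14 were over 2-fold higher, beside 9.93% of all genes tested, and 7 lower, beside 10.8%, and their median log2 ratio was -0.05. Of its 12 further S100 genes, 4 could be compared and 0 passed 2-fold in either direction. Sparcl1, a secreted EF-hand protein, was higher in the Nefh neurons (394 against 8.83 CPM), as were Necab2 (35.3 against 2.05) and Cabp7 (10.6 against 0.411, with 2 UMIs in the Calca/Trpv1 neurons and a log2 ratio of 4.69, 2.73 to 7.79). The calcium pump Atp2b4 (16.5 against 222 CPM), Ahnak, a partner of S100A10 and annexin A2 (15.0 against 149), and Rcn3 (0.883 against 6.16, with 3 UMIs in the Nefh neurons and a log2 ratio of -2.80, -5.16 to -1.12) were lower.

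For each group against the others together, the list genes with the largest fold in each direction, up to 3, were as follows. In the Trpm8 neurons they were S100a4, with 280 against 24.9 CPM (log2 ratio 3.49, 3.31 to 3.68) and a UMI in 42.2% of neurons, the sensor Hpcal4 (8.96 against 1.51 CPM) and Necab1 (312 against 109 CPM). In the Mrgprd neurons they were Kcnip2 and Kcnip4, sensors bound to Kv4 potassium channels, with 314 and 589 CPM against 57.9 and 124 CPM, and S100g (3.06 against 1.06 CPM, from 10 UMIs). Kcnip2 and Kcnip4 were not particular to that group, since the Cd34 neurons had 219 and 353 CPM and the Mrgpra3 neurons 127 and 402 CPM. The Mrgpra3 genes rested on few UMIs, with 5 of S100g (15.5 against 1.17 CPM), 3 of Anxa11 (log2 ratio 1.55, -0.77 to 3.17) and 1 of Ager (1.26, -4.11 to 3.89).

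In the Nppb neurons, Tesc had 222 CPM against 26.3, followed by 98.0 CPM in the Nefh neurons, and S100a5 reached 63.4 CPM, but 13 of its 18 UMIs were in 1 neuron. Ager had 1 UMI there (1.45, -3.92 to 4.08). In the Cd34 neurons, Sparc, a secreted EF-hand protein of the matrix, had 76.6 against 14.4 CPM (2.41, 2.14 to 2.69), where the 4 fibroblast genes summed to 16.2 CPM and the 5 endothelial genes to 81.4 CPM, the highest of the 7 groups. The part of these cells in the Sparc level was not tested. Necab3 and Necab2 had 217 and 105 CPM there against 43.9 and 25.9 CPM, and the next highest groups were the Nefh neurons for Necab3, with 114 CPM, and the Trpm8 neurons for Necab2, with 87.7 CPM. The Nefh neurons led in Cabp7 (10.6 against 0.286 CPM) and Sparcl1 (394 against 33.5), and Tesc was also higher there than in the others together (98.0 against 12.8). In the Calca/Trpv1 neurons the genes were Atp2b4 (222 against 68.9 CPM), the sodium-calcium exchanger Slc8a2 (5.13 against 1.60 CPM) and S100a13 (462 against 179 CPM), of which the Nefh neurons had 376 CPM.

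Of the lower genes, Ahnak (15.0 against 171 CPM), Atp2b4 (16.5 against 135) and Kcnip2 (16.2 against 128) had the largest folds in the Nefh neurons, and Kcnip2 (5.13 against 146), Necab2 (2.05 against 54.8) and Sparcl1 (8.83 against 141) in the Calca/Trpv1 neurons. In the Cd34 neurons S100a4 was lowest against the others (7.11 against 66.7 CPM), and Hpcal4 (log2 ratio -3.15, -8.49 to -0.59) and Cabp7 (-3.08, -8.42 to -0.52) had 1 UMI each. In the other groups the lower genes named by this rule had 0 UMIs, and each had 52 or fewer UMIs in the others together. Other list genes were also at 0, and ties were taken in list order. The named ones were S100g, Cabp7 and Scgn in the Trpm8 neurons and Cabp7, Slc8a1 and Slc8a2 in the Mrgprd neurons. They were S100a7a, Hpcal4 and Cabp7 in the Mrgpra3 neurons and S100g, Hpcal4 and Slc8a2 in the Nppb neurons. In the Mrgpra3 and Nppb neurons the upper limits of these log2 ratios were 2.27 to 3.26, so a lower level was not shown. The same holds for S100g in the Trpm8 neurons (upper limit 0.19). The other named ones had upper limits of -1.44 to -0.53.

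Of 61 list genes with 20 UMIs, 11 were over 2-fold higher in the Nefh neurons (7.75% of all genes), 10 in the Nppb (8.40%), 8 in the Cd34 (5.44%), 8 in the Calca/Trpv1 (8.18%), 5 in the Trpm8 (4.90%), 4 in the Mrgprd (6.32%) and 3 in the Mrgpra3 neurons (8.03%). Over 2-fold lower were 25 in the Mrgprd neurons (19.7% of all genes), 22 in the Trpm8 (17.7%), 16 in the Nppb and 15 in the Mrgpra3 (24.5% each), 12 in the Cd34 (14%), 12 in the Calca/Trpv1 (10.4%) and 7 in the Nefh neurons (10%).

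The genes most like each member over the 7 groups were found by Pearson's r of log2(CPM + 10) among 5521 genes with at least 50 CPM in some group. With only 7 points from the same libraries, these values are descriptions. Calb1 was most like Spp1 (r = 0.992), Ntng1 (0.991) and Rasgrp2 (0.974), and S100b like Serpinb1a (0.973), Fam19a1 (0.973) and Nfia (0.961). S100a16 was most like Cbln2 (0.967), Rasgrp2 (0.959) and Frrs1l (0.957), and Vsnl1 like Pcsk1 (0.986), B3gnt1 (0.972) and Golim4 (0.970). S100a6 was most like Fgf13 (0.985), Plxnd1 (0.969) and Hs6st2 (0.954). Pvalb was most like Rab3a (0.976), Slirp (0.971) and Grsf1 (0.970), S100a10 like D10Wsu102e (0.959), Manbal (0.944) and Acot9 (0.942), and Hpca like Etfa (0.990), Mpc1 (0.979) and Lrrc3b (0.976). S100a11 was most like Calca (0.980), a gene that defined one of the groups, Clcn5 (0.964) and Bod1l (0.926). Since r does not depend on the size of the differences, several of these genes were far flatter than the member. Rab3a ranged only from 438 to 721 CPM, Etfa from 257 to 524, Mpc1 from 68.1 to 157, D10Wsu102e from 32.5 to 54.0 and Clcn5 from 59.8 to 87.3 CPM. Calb2 did not reach 50 CPM in any group and was left out.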

How the data were processed

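The authors deposited 1 table of UMI counts per gene and cell barcode, without normalization. Per the labels, reads were converted with bcl2fastq 2.17, aligned to mm10 with STAR 2.5.3a and processed with Seurat 1.4.0.16. The barcodes carry no sample name, so the 9 samples were treated as 1 pooled sample and no replicate error can be given. A set of 6 barcode sequences occurs in 2 columns each. Counts were summed over groups of neurons as CPM, with exact Poisson intervals. Ratios have exact conditional binomial 95% intervals and were called past 2-fold, for genes with at least 20 UMIs over the groups compared. Barcodes were thinned to 1000 UMIs at random with a fixed seed. No doublet caller was run. Calculations used Python 3.11.15, numpy 2.4.6 and scipy 1.17.1, and the ratios and intervals were tested on simulated data. The members, groups, gene lists and settings were chosen with earlier results of these data known. The genes named were all 10 members, from the wider list up to 3 genes with the largest fold in each group and direction, and the 3 genes most like each member. Barcodes outside the neuron rule were assigned by marker lists, requiring 3 of 7 red blood cell, 4 of 10 glial, 3 of 6 olfactory, 3 of 5 endothelial, 2 of 7 immune or 3 of 4 fibroblast genes, or over 2% of UMIs from pituitary hormones. Gene positions are from GENCODE for GRCm38.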

Additional observations from a re-analysis of the deposited data

How the results depend on the processing

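For the Nefh against Calca/Trpv1 neurons, limits of 900 to 7500 genes, at least 4 of the 6 neuron markers, and, chosen after the data were seen, leaving out shared barcode sequences kept all 10 log2 ratios within the interval of the reported value. Values outside it were as follows. Raised group thresholds gave S100b 3.54, S100a6 -1.81 and S100a16 5.70. The reversed order of rules gave S100b 2.56, S100a6 -1.02, S100a10 0.19, S100a11 -2.36, S100a16 3.16, Hpca 1.62 and Vsnl1 3.21. Counting each neuron the same gave S100b 3.65, S100a6 -1.69, S100a10 -0.12, S100a11 -2.48, S100a16 4.59 and Hpca 1.17. Thinning gave S100b 3.72, S100a10 -0.22, S100a11 -2.86 and S100a16 4.45. Without the 10% deepest neurons the ratios were S100b 3.87, S100a6 -1.63, S100a11 -2.25, S100a16 5.06 and Hpca 1.02, and without neurons over 5% mitochondrial UMIs S100a6 -1.67 and S100a10 0.084. Leaving out neurons with 2 or more markers of other cells kept only 677 of 3855 and gave S100b 3.39, S100a10 -0.36, S100a11 -3.70, Hpca 1.17 and Vsnl1 4.5. In settings chosen after the data were seen, without neurons with a strict marker of other cells S100b was 3.51, and without the 3 richest neurons of each group S100b was 3.55, S100a6 -1.86, S100a11 -2.36 and S100a16 4.99. Hpca passed 2-fold in 4 of these settings. With no filter on low counts, 19.0% of genes were over 2-fold higher and 19.1% lower. No other cause was tested. The Trpm8 ratio of Pvalb to other groups, 2.01, was -2.32 with the order of rules reversed and -1.36 without neurons with 2 or more markers of other cells, and it was 1.12 with each neuron counted the same, 0.83 thinned, 0.65 without the deepest neurons and 1.57 without the 3 richest. The Nefh ratio of Hpca to other groups, -1.04, was 1.21 with the order of rules reversed and -0.56 to -0.26 with raised thresholds, without neurons with 2 or more markers of other cells, with each neuron counted the same, thinned or without the deepest neurons. No ratio was obtained for Calb1 when thinned, without the 3 richest neurons or without neurons with 2 or more other-cell markers, nor for Calb2 and S100a16 in the last case, since a group had 0 UMIs. No paired analysis was possible because the labels give 1 group and the barcodes carry no replicate number, and for the same reason no replicate could be left out. Depth limits Calb2 in all groups, and the rarer members in the 49 Mrgpra3 and 57 Nppb neurons.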
